A study of Mus musculus with 6 samples.

Results

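The genes described here are 10 white adipocyte genes, Adipoq, Lep, Retn, Plin1, Plin4, Cidec, Fabp4, Lipe, Pnpla2 and Pparg, measured by RNA sequencing of whole mouse skin. They were chosen by symbol from the 23951 genes of the deposited table, and all 10 were found. All 10 were also among the 17021 genes that passed the filter on low values, a mean of at least 0.1 FPKM (fragments mapped, per 1000000, to each kilobase of a transcript) over the 6 libraries. Skin came from 3 control mice, with the genotype JunB +/+, and 3 JunBΔep mice, labelled JunB dep, in which a floxed Junb gene is deleted by a Cre recombinase driven by the keratin 5 promoter. All 6 mice had the strain label C57Bl/6 and were 6 to 7 months old, and both sexes were used. The keratin 5 promoter is active in basal epidermal cells, so adipocytes were not the cells in which Junb was targeted. The JunBΔep skin was lesional skin, and the comparison asks how inflamed JunBΔep skin differs from control skin. Libraries are called by genotype and by the replicate number 0, 1 or 2 of the labels, and 3 values given together are those of replicates 0, 1 and 2 in that order. In bulk skin, fewer adipocytes and less RNA per adipocyte cannot be told apart.

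White adipocytes store triglyceride in 1 large lipid droplet and form a layer beneath the dermis of mouse skin, which thickens and thins with the hair cycle. Pparg encodes the nuclear receptor that drives adipocyte differentiation. Perilipins and Cidec coat and enlarge the droplet, Fabp4 carries fatty acids in the cytoplasm, and Pnpla2 and Lipe release fatty acids from stored triglyceride one after the other. The mature cell secretes adiponectin, leptin and, in the mouse, resistin. Leptin output is known to follow the lipid content of the cell, and insulin and feeding raise it.

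Several facts of the whole series bear on these genes. Junb, on mm9 chromosome 8 from 87500811 to 87502617, had 59.3, 72.4 and 56.9 FPKM in the controls. JunBΔep replicates 1 and 2 had 42.8 and 28.0 FPKM, whereas the library labelled JunBΔep replicate 0 had 129.6 FPKM. That library was above every control at the targeted gene. Whole skin also holds cells in which Junb was not targeted, so this value alone does not show that the label is wrong. The fits for the 10 genes and the list medians of fat cell genes are given with and without that library. JunBΔep replicate 0 is also listed at 0 FPKM for Krt14, which was at 837 FPKM or more in the other 5 libraries. The same holds for Krt6a, Krt16, Krt75, Mrgprb3 and S100a9, each listed at 0 FPKM in that library. Whether these 0 values are absent transcripts or missing values was not tested. Alb, a transcript of liver for the main plasma protein, reached 823 FPKM in control replicate 0 and at most 18.8 FPKM elsewhere. The 10 liver markers together summed to 3059 FPKM in control replicate 0 and to 35.6 to 782 FPKM elsewhere. Xist, expressed from an inactive X chromosome, was at 27.6 to 34.2 FPKM in JunBΔep replicates 1 and 2 and control replicate 1, whereas the other libraries had no more than 0.03 FPKM, so sex was not matched between the groups. Low FPKM values multiplied by transcript length fell on whole multiples of 1 step per library, with 78.5% to 82.4% of low values within 0.1 of a whole number. That step implied 41500000 to 49600000 fragments per library, so the 6 libraries had like depth.

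Promoter sequence is shown for 4 of the genes. Lep is the gene whose groups did not overlap, Retn the gene highest over its controls in JunBΔep replicate 2, and Adipoq and Plin1 are those against which the others were set. The RefSeq promoter table (GRCm38.p6) held 9 of the 10 genes, without Fabp4, and each sequence was located letter for letter on mm9. Shown are the bases from 200 to 11 before the annotated start, 5′ to 3′ on the gene's strand, with motif matches in capitals, for Lep (chr6:29010021-29010210, plus strand), Retn (chr8:3655570-3655759, plus strand), Adipoq (chr16:23146409-23146598, plus strand) and Plin1 (chr7:86877673-86877862, minus strand).
Lep: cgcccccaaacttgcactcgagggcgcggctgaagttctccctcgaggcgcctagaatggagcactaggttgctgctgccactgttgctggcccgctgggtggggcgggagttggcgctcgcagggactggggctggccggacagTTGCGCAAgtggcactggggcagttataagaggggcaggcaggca
Retn: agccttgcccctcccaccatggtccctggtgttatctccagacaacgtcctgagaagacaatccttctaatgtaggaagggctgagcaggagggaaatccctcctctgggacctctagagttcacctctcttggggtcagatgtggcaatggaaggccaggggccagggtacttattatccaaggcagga
Adipoq: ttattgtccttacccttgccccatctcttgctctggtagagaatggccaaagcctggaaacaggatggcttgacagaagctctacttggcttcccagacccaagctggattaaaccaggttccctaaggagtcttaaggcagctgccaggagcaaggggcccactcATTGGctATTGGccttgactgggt
Plin1: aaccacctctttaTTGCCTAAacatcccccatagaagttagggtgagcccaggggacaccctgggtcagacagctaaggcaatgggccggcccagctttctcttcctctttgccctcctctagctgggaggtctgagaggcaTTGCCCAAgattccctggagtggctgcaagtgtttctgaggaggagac

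The capitals in Lep and Plin1 mark the motif TTGCNNAA of C/EBP factors, which act with Pparg in adipocyte differentiation, and those in Adipoq mark the CCAAT box (CCAAT, here on the opposite strand). Motifs were searched on both strands in the 250 bases before the first listed start of each gene, and no matches of different motifs overlapped in the printed stretches. TTGCNNAA occurred in 2 of the 9 genes, Lep and Plin1, and in 9.55% of 27025 promoters of the same length. The CCAAT box occurred in Adipoq and Plin4, and in 34.5% of all promoters. The AP-1 motif TGANTCA, the binding motif of JunB and its partners, was in none of the 9 and in 6.87% of all. The motif of the Pparg and Rxra pair (AGGNCA repeated after 1 base) was in none of the 9 and in 0.333% of all, and the TATA box (TATAAA) in none of the 9 and in 13.0% of all. Later listed starts, which these counts leave out, held matches at Cidec (AP-1 and C/EBP) and at Pparg (TATA box, CCAAT box and C/EBP). These are letter matches and say nothing of binding.

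The 10 genes were high in control skin. In the order of the control means, per transcript length, Fabp4 led with 1666 FPKM, followed by Adipoq with 313 FPKM, Cidec with 185 FPKM, Retn with 109.8 FPKM, Pnpla2 with 96.5 FPKM, Plin4 with 85.9 FPKM, Plin1 with 83.3 FPKM, Lep with 78.1 FPKM, Lipe with 75.0 FPKM and Pparg with 17.0 FPKM. Only the steps from Fabp4 to Adipoq and from Lipe to Pparg had control ranges that did not overlap, so neighbours in this order from Adipoq to Lipe overlapped across mice. Within libraries, Adipoq exceeded Cidec and Pnpla2 exceeded Plin4 in 6 of 6. The controls differed among themselves as well. Control replicate 1 was the highest control for 9 of the 10 genes, Plin1 being the exception, and control replicate 2 was the lowest for all 10. The highest control exceeded the lowest by 1.58-fold for Pparg and by 3.58-fold for Lep, with the other 8 between those values. Together the 10 genes took 0.273% to 0.745% of the FPKM sum in controls, 0.0152% in JunBΔep replicate 0, 0.511% in JunBΔep replicate 1 and 2.15% in JunBΔep replicate 2.

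Leptin is the hormone that reports fat stores to the brain, and its gene was the only 1 of the 10 whose groups did not overlap, a share near the 9.16% of all tested genes that were lower without overlap. Lep (mm9 chromosome 6, 29010220 to 29023877) had 73.9, 125.3 and 35.0 FPKM in the controls, compared with 0.027, 18.1 and 33.1 FPKM in the JunBΔep mice. All 3 JunBΔep values lay below all 3 controls, but JunBΔep replicate 2 came close to control replicate 2, and the groups overlapped once each library was rescaled to a sum of 1000000. The group means were 78.1 ± 45.3 FPKM in the controls, compared with 17.1 ± 16.6 FPKM in the JunBΔep mice (SD, n = 3 each). The log2 fold change was -3.33 with a standard error of 1.58, and limma's adjusted p was 0.718. For its longest transcript of 3259 bases, the value in JunBΔep replicate 0 corresponds to 4 fragments (exact Poisson 95% interval 1.09 to 10.2, counting error only), against 5391 to 16946 fragments in the controls. Without JunBΔep replicate 0 the log2 fold change of Lep was -1.47 ± 0.59 (SE), with an adjusted p of 0.640 by limma.

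For adiponectin and resistin the groups overlapped. Adipoq (chromosome 16, 23146609 to 23158101), which encodes a hormone that raises insulin sensitivity, had 310.3, 454.5 and 174.5 FPKM in the controls, compared with 1.61, 213 and 936 FPKM in the JunBΔep mice. Retn (chromosome 8, 3655770 to 3660110), which encodes a hormone linked to insulin resistance in mice, had 101.6, 159.4 and 68.4 FPKM in the controls, compared with 1.11, 168.3 and 996 FPKM in the JunBΔep mice. For both genes JunBΔep replicate 0 was far below every control and JunBΔep replicate 2 above every control. Retn was the only one of the 10 that JunBΔep replicate 1 also carried above every control. The Retn value in JunBΔep replicate 2 was 9.07 times the control mean, against 2.99 times for Adipoq. Neither gene passed the test, with log2 fold changes of -1.96 ± 2.17 for Adipoq and -0.68 ± 2.26 for Retn (SE) and limma adjusted p values of 0.764 and 0.924. Without JunBΔep replicate 0 both were positive, at 0.62 ± 0.75 for Adipoq and 1.98 ± 0.82 for Retn, again short of the threshold (adjusted p = 0.831 and 0.663 by limma).

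**Figure D1:**
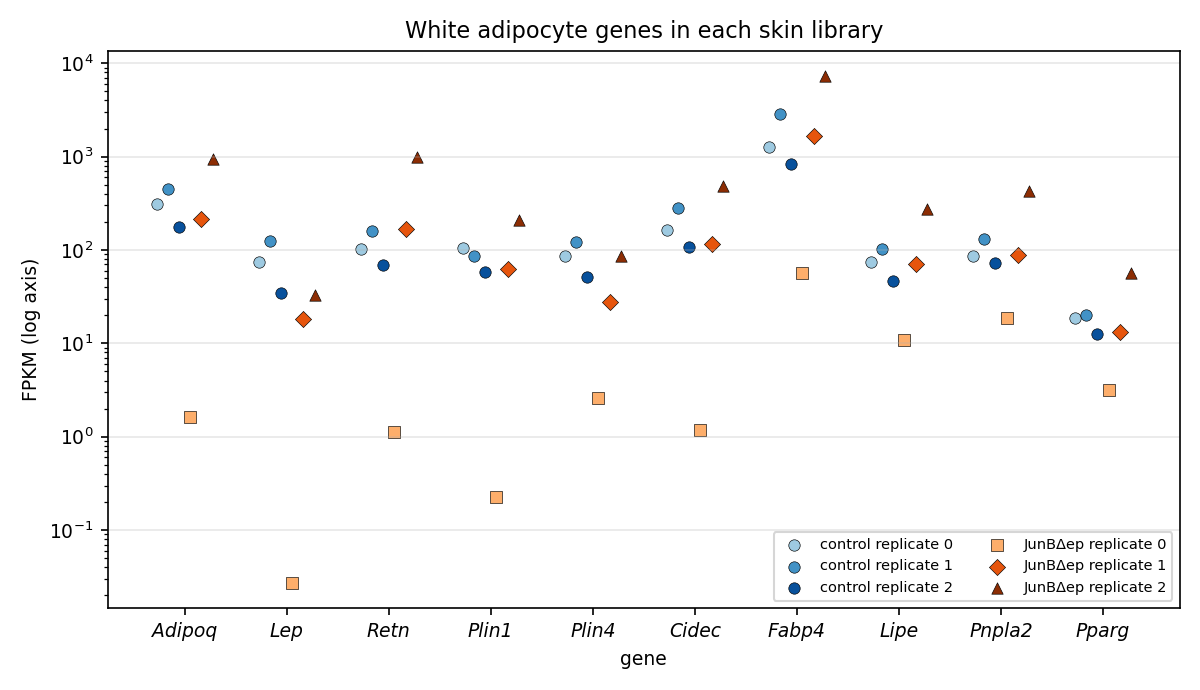
FPKM of the 10 white adipocyte genes in each of the 6 skin libraries, on a log axis, with controls as blue circles and JunBΔep replicates 0, 1 and 2 as a square, a diamond and a triangle. JunBΔep replicate 0 is the lowest library for all 10 genes, and JunBΔep replicate 2 is the highest for 8, all but Lep and Plin4.

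The genes of the lipid droplet coat varied in the same way, with Plin4 as a partial exception. Plin1 (chromosome 7, 86866050 to 86877662), the perilipin that gates access of lipases to the droplet, had 105.4, 86.7 and 57.8 FPKM in the controls, compared with 0.23, 63.1 and 209 FPKM in the JunBΔep mice. Cidec (chromosome 6, 113374628 to 113385754), which promotes the fusion of droplets into a large one, had 164.7, 283 and 106.7 FPKM in the controls, compared with 1.17, 114.7 and 484 FPKM in the JunBΔep mice. Plin4 (chromosome 17, 56240014 to 56249225), a perilipin that coats small and nascent droplets, had 85.2, 120.5 and 51.9 FPKM in the controls, compared with 2.59, 27.9 and 85.7 FPKM in the JunBΔep mice. JunBΔep replicate 2 was thus above every control for Plin1 and Cidec, while for Plin4 it lay within the controls and JunBΔep replicate 1 below them. The log2 fold changes were -1.93 ± 2.03 for Plin1, -1.92 ± 2.02 for Cidec and -2.06 ± 1.18 for Plin4 (SE), with adjusted p values of 0.754, 0.754 and 0.722 by limma. Without JunBΔep replicate 0 Plin1 and Cidec were at 0.51 and 0.46 and Plin4 stayed negative at -0.72.

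Fabp4 (chromosome 3, 10204347 to 10208576), the fatty acid binding protein of fat cells that is also found in capillary endothelium and macrophages, had 1272, 2889.9 and 836 FPKM in the controls, compared with 56.0, 1680.5 and 7288 FPKM in the JunBΔep mice. Its value in JunBΔep replicate 2 was 4.37 times the control mean, and that in JunBΔep replicate 1 equalled the control mean within 1%. Its log2 fold change was -0.72 ± 1.75 (SE), with an adjusted p of 0.895 by limma, and the groups overlapped. Without JunBΔep replicate 0 it was 1.27 ± 0.87.

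The 2 lipases and Pparg were the least low in JunBΔep replicate 0. Lipe (chromosome 7, 26164546 to 26183729), hormone-sensitive lipase, had 74.9, 103.2 and 47.0 FPKM in the controls, compared with 10.9, 71.6 and 276.6 FPKM in the JunBΔep mice. Pnpla2 (chromosome 7, 148641097 to 148646642), adipose triglyceride lipase, had 85.5, 131.3 and 72.8 FPKM in the controls, compared with 18.7, 88.9 and 429.6 FPKM in the JunBΔep mice. Pparg (chromosome 6, 115311239 to 115440419) had 18.5, 19.98 and 12.6 FPKM in the controls, compared with 3.17, 13.1 and 56.3 FPKM in the JunBΔep mice. For these 3 genes the lowest control exceeded JunBΔep replicate 0 by 3.89-fold to 4.30-fold, against 61.4-fold for Retn, 91.3-fold for Cidec, 108-fold for Adipoq and 253-fold for Plin1. Fabp4, at 14.9-fold, and Plin4, at 20.1-fold, lay between. The lipases and Pparg are also used outside white fat, Pparg in sebaceous glands and Lipe and Pnpla2 in muscle and other tissues. Their log2 fold changes were -0.23 ± 1.12 for Lipe, -0.06 ± 1.08 for Pnpla2 and -0.28 ± 0.95 for Pparg (SE), with adjusted p values of 0.949, 0.987 and 0.924 by limma. These values average a low JunBΔep replicate 0 with a high JunBΔep replicate 2, and without JunBΔep replicate 0 they were 0.98, 1.06 and 0.69.

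No member of the set passed the test between genotypes, 0 of 10 lower and 0 of 10 higher at an adjusted p below 0.05 by limma, and none had an unadjusted p below 0.05. Over all 17021 tested genes, 1.38% were lower and 0.0% higher in JunBΔep at that threshold, and 1044 were lower and 243 higher at an unadjusted p below 0.05. For 9 of the 10 genes the groups overlapped. Only Lep had all JunBΔep values below all controls and no gene had them all above, against 9.16% and 5.62% of all tested genes. All 10 fitted log2 fold changes were negative, with a median of -1.32 against 0.03 over all tested genes. The arithmetic means in FPKM ran the other way for 8 of the 10 genes, all but Lep and Plin4, with for example 384 FPKM of Adipoq in JunBΔep and 313 FPKM in control. With standard errors of 0.95 to 2.26, each 95% interval included 0. Since 3 mice against 3 cannot give a two-sided exact permutation p below 0.1 for a single gene, the test rests on the fit across genes, and missing its threshold does not show that the levels were alike.

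**Figure D2:**
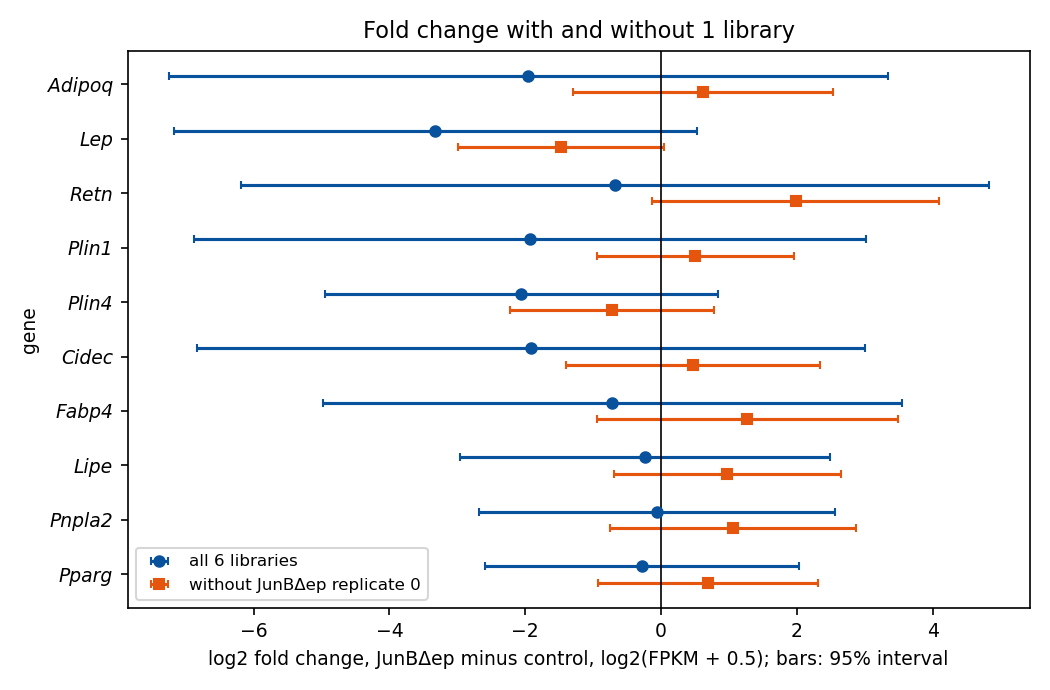
Log2 fold change of each gene, JunBΔep minus control on the log2(FPKM + 0.5) scale, with its 95% interval from limma, for all 6 libraries (circles) and without JunBΔep replicate 0 (squares). With all libraries the 10 estimates are negative, without that library 8 are positive, and every interval includes 0 in both fits.

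The direction rested on 1 library. JunBΔep replicate 0 was below every control for 10 of 10 genes, where 39.3% of all tested genes were, and its median difference from the control mean was -5.37 on the log2(FPKM + 0.5) scale. JunBΔep replicate 1 had a median difference of -0.35 and was below every control only for Lep and Plin4. JunBΔep replicate 2 had a median difference of 1.70 and was above every control for 8 of 10 genes, where 25.1% of all tested genes were. Over all tested genes the same median lay between -0.02 and 0.00 in each library, but the deposited medians are already level between libraries, so that value does not test for a shift in scale. Without JunBΔep replicate 0 the median log2 fold change of the 10 genes was 0.65, with 8 positive and Lep and Plin4 negative, and again 0 of 10 passed the test (adjusted p = 0.640 to 0.866 by limma), where 0.798% of all tested genes did. In that subset Lep lay below and Retn above all controls, against 13.0% of tested genes below and 11.1% above.

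The numbers in the sample titles form 2 runs, whose meaning the labels do not give. Control replicates 0 and 1 and JunBΔep replicate 0 belong to the first, and control replicate 2 and JunBΔep replicates 1 and 2 to the second. In the first run JunBΔep was lower than control for 10 of 10 genes, with differences of -7.52 to -2.42 on the log2(FPKM + 0.5) scale. In the second run JunBΔep was higher for 8 genes and lower for Lep and Plin4, with differences of -0.51 to 2.57. The runs thus gave opposite directions for 8 of the 10 genes, and each has only 1 mouse in one of its groups, so no test was made. Split by Xist instead, control replicate 1 had 125.3 FPKM of Lep against 18.1 and 33.1 FPKM in JunBΔep replicates 1 and 2. Control replicates 0 and 2 had 73.9 and 35.0 FPKM of Lep against 0.027 FPKM in JunBΔep replicate 0. Other genes did not share both directions. Control replicate 1 had 454.5 FPKM of Adipoq against 213 and 936 FPKM in JunBΔep replicates 1 and 2. For Retn these values were 159.4 FPKM against 168.3 and 996 FPKM. JunBΔep replicate 0 was below every control for all 10 genes. With a block on the title runs all 10 log2 fold changes stayed negative and none passed the test. The effect of the runs themselves and the part of sex in the levels were not tested.

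Set against the other 9 genes in the same library, Lep was low in every JunBΔep mouse. This ratio, chosen after the values were seen and given as a description, takes out what the 10 genes share within a library. The FPKM of Lep was 0.595, 0.709 and 0.436 times the geometric mean of the other 9 genes in control replicates 0, 1 and 2, and 0.0083, 0.180 and 0.0791 times in JunBΔep replicates 0, 1 and 2. The difference between the group means was -3.53 in log2, or -2.25 without JunBΔep replicate 0, whose ratio rests on 4 fragments of Lep. The groups did not overlap for Lep, nor in the higher direction for Fabp4, Lipe and Pnpla2. The exact permutation p was 0.1 for each of them, the smallest possible for 3 mice against 3. For ratios between genes, the share of all tested genes without overlap was not computed. Set against Adipoq alone, Lep was at 0.200 to 0.276 times in controls and at 0.0170 to 0.0847 times in JunBΔep, and against Plin1 alone at 0.605 to 1.45 and at 0.120 to 0.286 times, again without overlap.

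Retn was higher in JunBΔep relative to Adipoq and to Plin1, references chosen after the values were seen. Relative to Adipoq this was shared with Fabp4, Lipe and Pnpla2, which overlapped between groups relative to Plin1. The ratio of Retn to Adipoq was 0.327, 0.351 and 0.392 in controls and 0.690, 0.790 and 1.06 in JunBΔep replicates 0, 1 and 2, and the ratio of Retn to Plin1 was 0.964, 1.84 and 1.18 in controls and 4.88, 2.67 and 4.76 in JunBΔep. Against the other 9 genes Retn lay above the controls in JunBΔep replicates 1 and 2, at 2.15 and 3.47 times against 0.848 to 0.927 times, but below them in JunBΔep replicate 0, at 0.511 times. In that library the reference includes Pparg, Pnpla2 and Lipe, which were less reduced.

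The level of a gene against the other 9 also depends on how those 9 moved, so low values of some raise the others. On that scale the difference between the group means was 0.95 in log2 for Fabp4, 1.48 for Lipe and 1.68 for Pnpla2, all without overlap, and 1.39 for Pparg, whose groups overlapped. These differences were 0.81, 0.49, 0.59 and 0.18 without JunBΔep replicate 0. How often other genes would be without overlap on that scale was not tested. Plin4 was tight in controls, at 0.676 to 0.697 times the other 9, and was at 0.292 and 0.228 times in JunBΔep replicates 1 and 2 but at 1.30 times in JunBΔep replicate 0. Adipoq, Plin1 and Cidec overlapped between groups, and in JunBΔep replicates 1 and 2 they lay within 0.20 of their control means in log2. In JunBΔep replicate 0 they differed from those means by -1.87, -2.96 and -1.54, below every control.

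**Figure D3:**
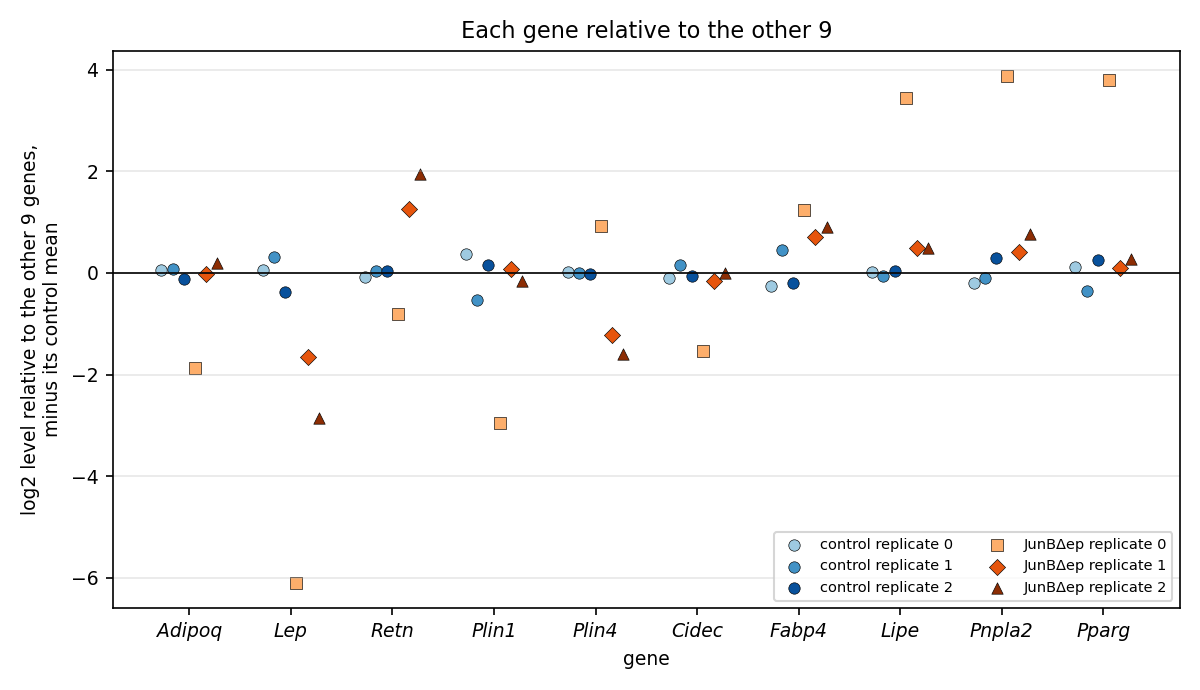
Log2 level of each gene relative to the mean log2 level of the other 9 in the same library, shown as the difference from its control mean, with controls as blue circles and JunBΔep replicates 0, 1 and 2 as a square, a diamond and a triangle. Lep lies below the controls in all 3 JunBΔep libraries, and Retn and Plin4 lie apart in opposite directions in JunBΔep replicates 1 and 2.

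Other genes of the fat cell, from lists of related function, gave few calls. Of 12 lipid droplet proteins, 1 passed the test, Fitm1, which encodes a protein that partitions triglyceride into droplets and is expressed mainly in muscle. Fitm1 had 62.0, 76.8 and 54.9 FPKM in the controls, compared with 6.59, 5.30 and 8.75 FPKM in the JunBΔep mice, a log2 fold change of -3.15 (adjusted p = 0.018 by limma). Plin5, a perilipin of oxidative tissue, had 5.49 to 9.01 FPKM in the controls, compared with 0.55 to 2.62 FPKM in the JunBΔep mice without passing the test (adjusted p = 0.13 by limma). Plin2, the perilipin found in most cells, had 38.0 to 62.5 FPKM in the controls, compared with 157, 51.0 and 122 FPKM in the JunBΔep mice, so it was highest where the adipocyte perilipins were lowest. The call was lost without any 1 control, without JunBΔep replicate 1 and with a block on either the replicate number or the run of title numbers. The median log2 fold change of the list was -0.36, or -0.25 without JunBΔep replicate 0.

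None of the 11 tested genes for other secreted adipocyte proteins passed the test, and their median log2 fold change was -1.13, or -0.0071 without JunBΔep replicate 0. Cfd, which encodes the complement protease adipsin, had 919, 1829 and 614 FPKM in the controls, compared with 8.51, 688 and 5034 FPKM in the JunBΔep mice, the pattern of Adipoq. Lpl, the lipase that frees fatty acids from lipoproteins, had 163 to 225 FPKM in the controls, compared with 9.85, 122 and 332 FPKM in the JunBΔep mice. Sfrp5, which encodes a secreted Wnt antagonist, shared the direction of Lep, with 9.43 to 23.0 FPKM in the controls, compared with 1.46, 2.96 and 8.17 FPKM in the JunBΔep mice, without overlap (log2 fold change -2.03, adjusted p = 0.38 by limma). Of 6 adipokine receptors 0 passed the test, with a median of -0.43, or -0.30 without JunBΔep replicate 0. Plin5 and the leptin receptor Lepr are outside the naming rule and were chosen after their values were seen. Lepr was low throughout, at 1.41 to 2.95 FPKM in the controls, compared with 1.14 to 2.29 FPKM in the JunBΔep mice.

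Resistin has relatives with other sources. Retnla, made by alternatively activated macrophages and fat, had 502, 416 and 276.8 FPKM in the controls, compared with 2.02, 232 and 334 FPKM in the JunBΔep mice. Retnlg, made by neutrophils, had 18.6, 0.79 and 0.14 FPKM in the controls, compared with 418, 0.13 and 1.34 FPKM in the JunBΔep mice, so the library lowest in Retn was the highest in Retnlg. Retnlb was at most 0.07 FPKM in any library and was not tested, and neither of the other 2 passed the test, with a median log2 fold change of -0.55, or -0.85 without JunBΔep replicate 0.

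Transcription factors of adipogenesis were less variable than the 10 genes, with 0 of 16 called and a median log2 fold change of -0.30, or -0.0020 without JunBΔep replicate 0. Cebpa, partner of Pparg, had 84.4 to 141 FPKM in the controls, compared with 99.3, 131.2 and 227 FPKM in the JunBΔep mice. Cebpb, an early factor that inflammation also induces, had 68.7 to 126 FPKM in the controls, compared with 311, 114 and 96.3 FPKM in the JunBΔep mice. Klf15, a late factor of adipogenesis, had the largest change of the list and did not pass the test, with 13.1 to 19.6 FPKM in the controls, compared with 0.96, 8.88 and 21.1 FPKM in the JunBΔep mice. In JunBΔep replicate 0 Cebpa was thus within and Cebpb above the controls, while Klf15 was at 0.96 FPKM and Pparg at 3.17 FPKM. Which cells of the skin these transcripts came from was not tested. Of 12 progenitor genes 0 passed, with a median of -0.28, or -0.53 without JunBΔep replicate 0, and in JunBΔep replicate 0 their median was 0.32 above the control mean.

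Lipolysis genes (0 of 16 called, median -0.24) and genes of triglyceride synthesis and fatty acid uptake (0 of 16, median -0.24) were highest in JunBΔep replicate 2 for 11 genes of each list and lowest in JunBΔep replicate 0 for 11 genes of each. Both medians turned positive without JunBΔep replicate 0, at 0.27 and 0.21. G0s2, an inhibitor of Pnpla2, had 55.5 to 143 FPKM in the controls, compared with 56.4, 22.9 and 87.5 FPKM in the JunBΔep mice. Pck1, which supplies glycerol for triglyceride in fat, had 64.2, 109.5 and 37.2 FPKM in the controls, compared with 0.10, 62.2 and 185 FPKM in the JunBΔep mice (also chosen after its values were seen). Fabp5, the fatty acid binding protein of keratinocytes, was above every control in all 3 JunBΔep mice, by most where Fabp4 was lowest, with 171 to 383 FPKM in the controls, compared with 6336, 483 and 397 FPKM in the JunBΔep mice. Other white adipocyte markers (0 of 16 called, median -0.55) were lowest in JunBΔep replicate 0 for 13 genes and highest in JunBΔep replicate 2 for 11, and without JunBΔep replicate 0 the median turned to 0.21. Car3, a carbonic anhydrase abundant in fat, had 892 to 1369 FPKM in the controls, compared with 5.96, 681 and 2499 FPKM in the JunBΔep mice.

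**Figure D4:**
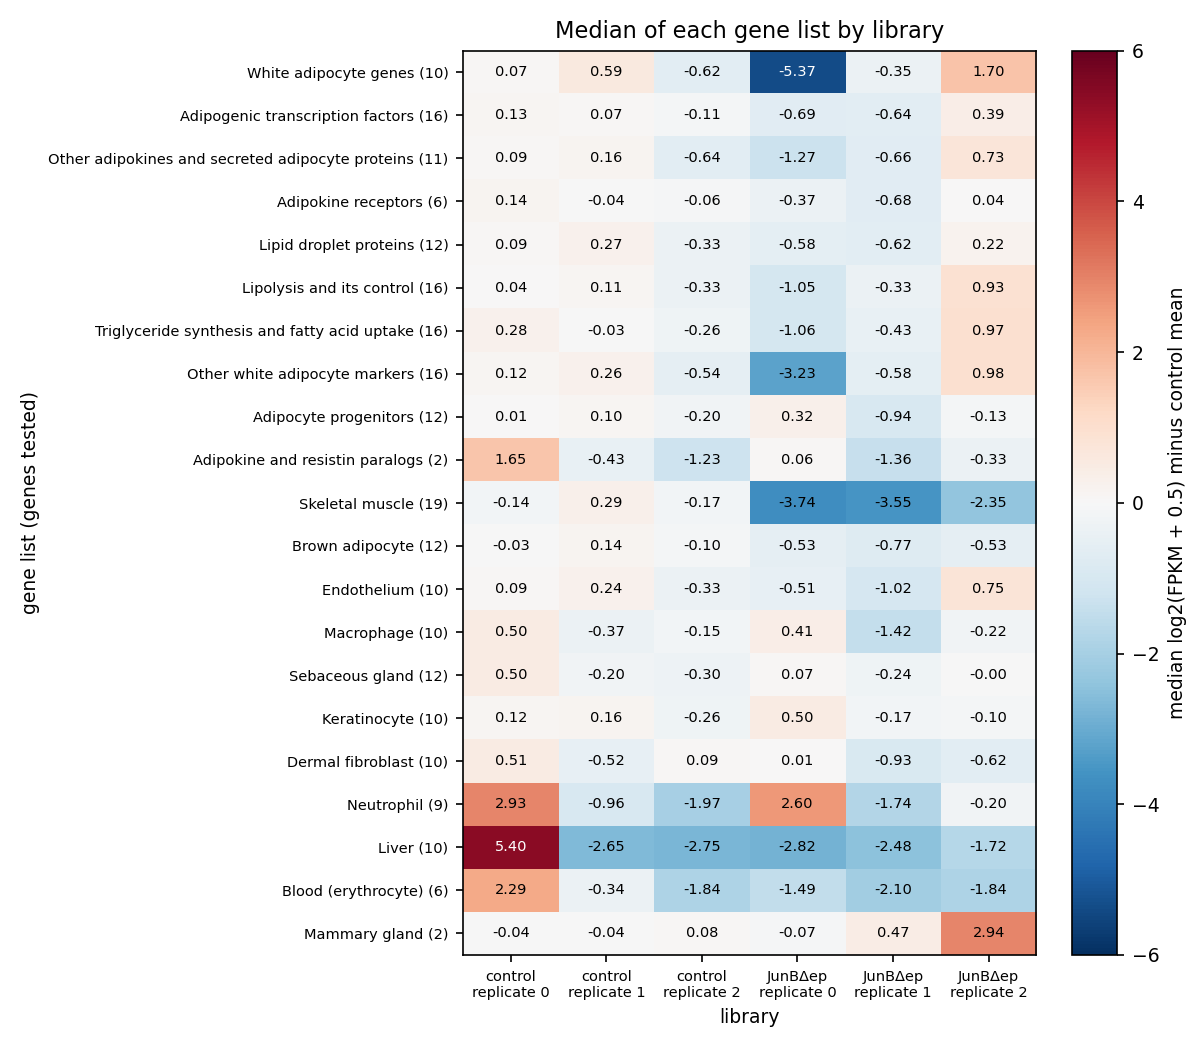
Median difference from the control mean, on the log2(FPKM + 0.5) scale, of each gene list in each library, with the number of tested genes in brackets and the value printed in each cell. The white adipocyte genes run from -5.37 to 1.70 between JunBΔep replicates 0 and 2, while skeletal muscle is low in all 3 JunBΔep libraries.

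Over the whole table, the 10 other genes most like the mean profile of the white adipocyte genes were sought by the root mean square difference of log2 values over the 6 libraries, among 13732 genes averaging at least 1 FPKM. They were Amy1, Slc7a10, Ces1d, Mrap, Cdo1, Smoc1, Tusc5, Lpl, Ppp1r1a and Apol6, with differences of 0.12 to 0.52. Amy1, an amylase, was the closest, at 47.1, 60.4 and 28.7 FPKM in the controls, compared with 1.13, 30.9 and 125 FPKM in the JunBΔep mice. Slc7a10, an amino acid transporter known from white fat, had 18.8, 24.3 and 10.1 FPKM in the controls, compared with 0.14, 12.6 and 41.5 FPKM in the JunBΔep mice. Among the 10 white adipocyte genes themselves Fabp4 lay nearest the mean profile, at 0.49, and Lep farthest, at 1.47.

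On the fat cell lists with no call, limma gave an unadjusted p below 0.05 for 3 other secreted proteins, 1 transcription factor, 1 other white adipocyte marker and 1 progenitor gene, all lower, for 1 gene of triglyceride synthesis, higher, and for 0 lipolysis genes, receptors and resistin relatives.

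Markers of other tissues also differed between the libraries. Skeletal muscle genes were lower in all JunBΔep libraries for 19 of 19 markers, and 14 of 19 passed the test (5 without JunBΔep replicate 0, 5 with no filter on low values, and 0 without any 1 control, without JunBΔep replicate 1 or with either block), with summed levels of 25038 to 34755 FPKM in the controls, compared with 2322 to 5598 FPKM in the JunBΔep mice. JunBΔep replicates 0 and 1 had like summed muscle levels, of 2525 and 2322 FPKM, and differed 132-fold in Adipoq. JunBΔep replicate 2 had the highest muscle and fat levels of the JunBΔep libraries, and control replicates 1 and 2 had the highest and the lowest of the controls. Of the 12 brown adipocyte markers Cox7a1, Cpt1b and Fabp3, which muscle also expresses, passed the test as lower (2 passed without JunBΔep replicate 0, and 0 without any 1 control, without JunBΔep replicate 1 or with either block), while Ucp1, which defines the brown adipocyte and was added after its value was seen, was at most 1.73 FPKM in any library. Endothelial markers, of which 0 of 10 passed, were highest in JunBΔep replicate 2 for 8 of 10, with summed levels of 114 to 216 FPKM in the controls, compared with 104, 74.2 and 274 FPKM in the JunBΔep mice. Macrophage markers (0 of 10 passed) summed to 271 to 460 FPKM in the controls, compared with 483, 124 and 297 FPKM in the JunBΔep mice. Neutrophil markers (0 of 9 passed) summed to 25032 FPKM in JunBΔep replicate 0, nearly all of it S100a8 at 24456 FPKM with its partner S100a9 listed at 0, and to 24.2 to 1805 FPKM in the other libraries. Mammary markers (0 of 2 passed) summed to 13.2 FPKM in JunBΔep replicate 2, of which Csn3 made 11.5 FPKM, and to at most 0.66 FPKM elsewhere, with the milk protein gene Csn2 listed at 0 in the other 5 libraries. Keratinocyte (0 of 10), dermal fibroblast (0 of 10), sebaceous (0 of 12), liver (0 of 10), erythrocyte (0 of 6) and sex-linked (0 of 5) markers had no calls. Liver markers summed to 3059, 235 and 159 FPKM in the controls, compared with 35.6, 139 and 782 FPKM in the JunBΔep mice. Of all these marker lists without a call, limma gave an unadjusted p below 0.05 only for 1 sebaceous and 1 fibroblast gene, both lower. The part of these tissues in the levels of the white adipocyte genes was not tested.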

How the data were processed

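Whole skin of 3 control and 3 JunBΔep mice was profiled by strand-specific poly(A) RNA sequencing. Through the nextpresso pipeline, the authors checked reads with FastQC, aligned them to NCBI37/mm9 with TopHat 2.0.10, Bowtie 1.0.0 and SAMtools 0.1.19, and deposited an FPKM value for each gene in each mouse. Cufflinks is among the tools in the submitters' processing notes, with no stated role, and any scaling between libraries is not stated. Their own test used read counts, which were not analysed here.

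FPKM values were compared as log2(FPKM + 0.5) with limma 3.58.1 in R 4.3.3 (intensity trend, no block, two-sided, Benjamini-Hochberg adjustment over the 17021 genes averaging 0.1 FPKM or more). This scale understates changes of low genes. Ratios between genes used log2 FPKM with no pseudocount. The limma procedure was tested on simulated data. Fragments were estimated from FPKM and GENCODE vM1 transcript lengths, as were gene positions. Nothing in the labels says that same-numbered mice are matched, and p-values measure the spread between these 6 mice.

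All 10 genes are named. From each list, called genes, the 4 most abundant and the most changed may be named. The gene choice and all lists were made with earlier results of these data known, and all ratios between genes were added after values were seen. Alternatives were other pseudocounts, filters, scalings, limma settings and blocks, and each library left out.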

Additional observations from a re-analysis of the deposited data

How the results depend on the processing

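No white adipocyte gene passed the test under any of the 17 alternatives run for each (lowest adjusted p = 0.214), and 159 of 170 such fits kept the direction. Only the alternative without JunBΔep replicate 0 leaves that library out, so the count does not test a direction that rests on it. Without JunBΔep replicate 0 the log2 fold change turned positive for the 8 genes other than Lep and Plin4, and the median of the 10 moved from -1.32 to 0.65. With a block on the title number series all 10 stayed negative, from -4.01 for Lep to -0.53 for Pnpla2, with a median of -2.22, and Retn moved from -0.68 to -1.87, Fabp4 from -0.72 to -1.51 and Lipe from -0.23 to -0.69. Without control replicate 1 Lipe was at 0.03 and Pnpla2 at 0.19, and with quantile normalization Pnpla2 was at 0.018. With each library left out in turn the log2 fold change ranged from -3.78 to 0.62 for Adipoq, -2.66 to 1.98 for Retn, -3.58 to 0.51 for Plin1, -3.63 to 0.46 for Cidec, -2.24 to 1.27 for Fabp4, -1.32 to 0.98 for Lipe, -1.18 to 1.06 for Pnpla2 and -1.28 to 0.69 for Pparg, the highest without JunBΔep replicate 0. The number of the 10 genes with no overlap between groups was 1, 0 after rescaling to a sum of 1000000, where Lep overlapped, and 1 to 2 with a library left out. The number of genes called over the whole table was 235, and 0 to 254 with a library left out (0 without any 1 control or JunBΔep replicate 1, and 135 without JunBΔep replicate 0). A replicate block gave 0 calls and a block on the title number series 0, with 972 and 1523 genes at an unadjusted p below 0.05 against 1287 with no block, and leaving out a library that ended all calls left 793 to 1090. Deviations of same-numbered mice correlated at 0.12, -0.23 and -0.43, against -0.37 to 0.46 for differently numbered mice. These values do not settle whether the replicate numbers pair the mice. With 3 mice a group that differ this much, the standard errors limit what can be called, and no count model was run.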

Other observations

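Some genes of fat metabolism outside the naming rule, chosen after their values were seen, were also far above the controls in JunBΔep replicate 2. Thrsp, a regulator of fatty acid synthesis, had 42.2 to 93.4 FPKM in the controls, compared with 0.69, 146 and 1013 FPKM in the JunBΔep mice (replicates 0, 1 and 2 in order). Pcx, the mitochondrial pyruvate carboxylase, had 27.3 to 43.7 FPKM in the controls, compared with 14.4, 52.8 and 353 FPKM in the JunBΔep mice. Hcar1, the lactate receptor of adipocytes, had 2.14 to 2.85 FPKM in the controls, compared with 0.02, 3.53 and 19.9 FPKM in the JunBΔep mice. Like Retn, these 3 genes were above every control in both JunBΔep replicates 1 and 2, as were 11.1% of all tested genes. None passed the test between genotypes in limma (adjusted p = 0.98, 0.76 and 0.96).

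Scd1, a desaturase abundant in fat and sebaceous gland, is listed at 0 FPKM in JunBΔep replicate 2 and was at 153 FPKM or more in the other 5 libraries. Whether that 0 is an absent transcript or a missing value was not tested. Gyk, glycerol kinase, was at 60.5 FPKM in JunBΔep replicate 0 and at most 2.34 FPKM in the others.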
